A study of Mus musculus with 6 samples.

Results

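Between genes, 1386 regions of acetylated chromatin carried no peak of open chromatin in mouse sensory neurons at embryonic stage E11.5. They were chosen from the peak lists themselves. Each is a peak of histone H3 acetylated at lysine 27 (H3K27ac) under 5000 bp wide, more than 1 kb and at most 100 kb from the nearest annotated end of a protein-coding gene, with its midpoint outside every protein-coding gene and with 0 bp shared with any ATAC peak. ATAC-seq maps DNA that a transposase can reach, and H3K27ac marks active promoters and enhancers. They made up 1386 of the 2781 H3K27ac peaks that met the width and position conditions, of 19924 H3K27ac peaks on chromosomes 1 to 19, X and Y. The other 1395 overlapped ATAC and are the comparison throughout. Because absence of ATAC and position chose the peaks, both are descriptions here and neither was tested.

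The cells were neurons of the dorsal root ganglion labelled as TrkC proprioceptive neurons, from Runx3-BAC-GFP-CB6 transgenic mice, fixed with paraformaldehyde and sorted for GFP. All 6 samples share this genotype, stage and sort: 2 were ATAC, 2 H3K27ac (antibody ab4729) and 2 input DNA, each from 50000 cells. GFP followed a Runx3 bacterial artificial chromosome, whose extent the labels do not state and which adds copies of the DNA it holds, and the labels do not say whether the replicates came from separate litters or pools. The authors deposited 1 consensus list per assay with positions alone, so no signal, no spread between replicates and no depth per sample can be given, and the input DNA was not used. Positions are on mm10 (GRCm38), counted from 1. Intervals are 95% intervals that cover counting error only, and neighbouring peaks are not independent.

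Enhancers are stretches of DNA bound by transcription factors. The factors hold a gap open in the nucleosome array, which ATAC reads, and the acetylated nucleosomes lie to either side of the gap, which H3K27ac reads. An acetylated stretch can therefore lie next to an open site without covering it. Proprioceptors sense muscle stretch and depend on Ntrk3, which encodes the neurotrophin-3 receptor TrkC, and on the transcription factor Runx3.

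Some of these peaks held the annotated start of a long non-coding RNA (lncRNA), and the DNA at those starts is shown here because it differed in base composition from the starts inside peaks with ATAC. The first 4 windows below are from the 5 widest peaks without ATAC that hold a whole window; the last is that of the widest such peak with ATAC. Each window runs 5′ to 3′ from 250 bases before to 50 after the annotated start, from RefSeq on GRCm38.p6, and capitals mark CpG dinucleotides. They lie at chr6:7945297-7945596 (minus strand, Gm35246, nearest to Col28a1), chr2:29252944-29253243 (minus, 6530402F18Rik, nearest to Ntng2), chr12:111694502-111694801 (plus, Gm51961, nearest to Trmt61a), chr17:9726450-9726749 (minus, Gm34684, nearest to Pabpc6) and, for the peak with ATAC, chr2:18026999-18027298 (plus, Gm17762, nearest to Skida1).
Gm35246: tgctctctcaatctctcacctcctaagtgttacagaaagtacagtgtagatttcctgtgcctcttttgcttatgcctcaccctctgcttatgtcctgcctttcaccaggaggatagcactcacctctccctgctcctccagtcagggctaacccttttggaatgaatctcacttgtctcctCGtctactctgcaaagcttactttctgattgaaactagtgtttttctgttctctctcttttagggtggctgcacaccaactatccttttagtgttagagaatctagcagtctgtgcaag
6530402F18Rik: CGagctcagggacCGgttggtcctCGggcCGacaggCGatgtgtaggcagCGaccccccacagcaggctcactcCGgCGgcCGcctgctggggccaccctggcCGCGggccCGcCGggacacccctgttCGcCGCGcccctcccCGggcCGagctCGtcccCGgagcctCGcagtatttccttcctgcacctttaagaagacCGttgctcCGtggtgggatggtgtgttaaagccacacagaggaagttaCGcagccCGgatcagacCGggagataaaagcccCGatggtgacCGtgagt
Gm51961: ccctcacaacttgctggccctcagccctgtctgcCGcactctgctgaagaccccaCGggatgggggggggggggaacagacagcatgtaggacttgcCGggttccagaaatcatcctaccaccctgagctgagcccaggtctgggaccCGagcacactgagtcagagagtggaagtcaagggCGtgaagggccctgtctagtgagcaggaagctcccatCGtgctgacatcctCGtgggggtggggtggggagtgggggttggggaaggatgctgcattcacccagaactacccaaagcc
Gm34684: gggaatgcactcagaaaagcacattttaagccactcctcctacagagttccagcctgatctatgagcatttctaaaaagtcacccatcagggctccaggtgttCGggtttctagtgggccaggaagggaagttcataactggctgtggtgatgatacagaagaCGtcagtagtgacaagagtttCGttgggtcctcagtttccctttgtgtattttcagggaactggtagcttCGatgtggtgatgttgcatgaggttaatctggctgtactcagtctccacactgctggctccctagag
Gm17762: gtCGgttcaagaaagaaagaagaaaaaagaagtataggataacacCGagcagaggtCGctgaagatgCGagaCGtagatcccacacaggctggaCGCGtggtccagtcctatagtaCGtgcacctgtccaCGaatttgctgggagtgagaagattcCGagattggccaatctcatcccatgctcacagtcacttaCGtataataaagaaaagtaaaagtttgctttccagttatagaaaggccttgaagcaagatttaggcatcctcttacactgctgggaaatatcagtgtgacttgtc
The Gm35246 window held 1 CpG in a peak of 4482 bp that lay 37878 bp from the nearest ATAC peak. The Gm51961 and Gm34684 windows held 7 and 4 CpGs, in peaks of 1739 and 1638 bp. The 6530402F18Rik window stood apart with 28 CpGs, in a peak of 3319 bp that lay 4595 bp from ATAC. The Gm17762 window, in an ATAC-bearing peak of 3983 bp, held 11. The window of 4930452G13Rik, in the next widest such peak with ATAC, of 3141 bp, held 4 and is not printed. The difference is thus one of medians and not of every window.

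Starts in peaks without ATAC were fewer and poorer in CpG. An annotated lncRNA start lay inside 33 of 1386 peaks without ATAC (2.38%, interval 1.70 to 3.32), against 138 of 1395 with ATAC (9.89%, 8.43 to 11.6). Narrower peaks leave less room for a start. By width class the shares were 1.47% without ATAC against 4.76% with ATAC under 500 bp, 2.63% against 6.41% from 500 to under 1000 bp, 3.73% against 14.6% from 1000 to under 2000 bp, and 3.41% against 13.2% from 2000 bp; the intervals overlapped in each class but 1000 to under 2000 bp. In the 34 lncRNA windows of peaks without ATAC the median was 5.5 CpGs (quartiles 3 and 7), against 13 (7.25 and 22.75) in the 146 windows of peaks with ATAC. All 9533 lncRNA windows of the annotation had a median of 4, and all 17492 protein-coding windows 13. At least 10 CpGs stood in 4 of 34 windows without ATAC (11.8%, 4.67 to 26.6) and in 95 of 146 with ATAC (65.1%, 57.0 to 72.3), beside 19.7% of all lncRNA starts and 57.2% of protein-coding starts. A pair of lncRNAs in peaks without ATAC, Gm32817 and Gm53058, share 1 window with 26 CpGs; over the 33 distinct windows the median was 5 and 3 (9.09%) held at least 10. The median without ATAC lay near that of all lncRNA starts and the median with ATAC at that of protein-coding starts.

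**Figure D1:**
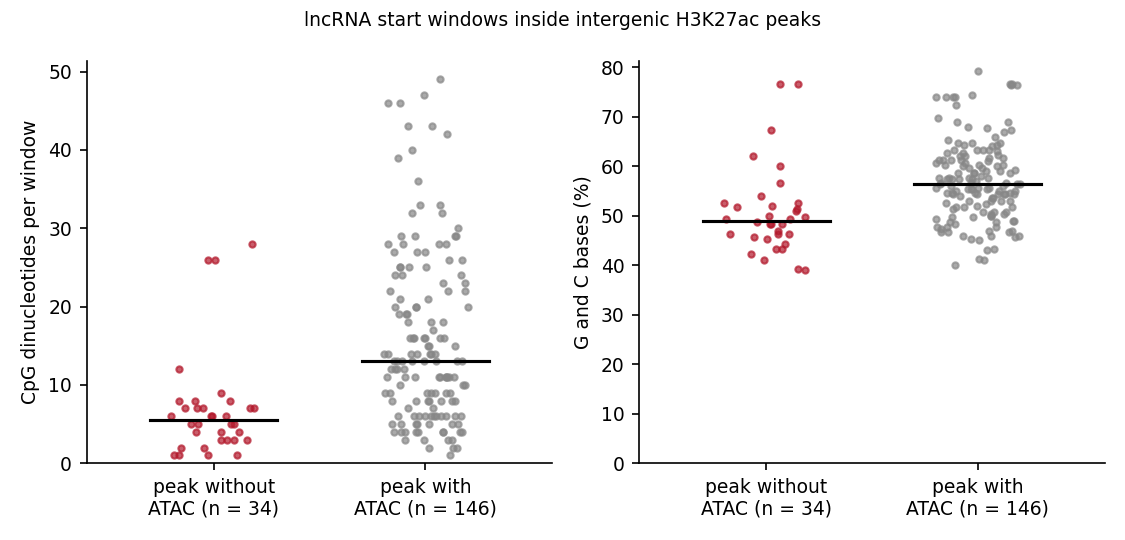
CpG dinucleotides (left) and G and C bases in percent (right) in 300-base windows at annotated lncRNA starts, for 34 starts inside intergenic H3K27ac peaks without ATAC and 146 inside those with ATAC. Each point is 1 lncRNA and the line is the median, 5.5 against 13 CpGs and 49.0% against 56.3% G and C; the 3 points without ATAC at over 20 CpGs stand for 2 distinct windows, since 1 window serves 2 lncRNAs.

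Of 3 short motifs, 1, an E-box, had a lower share in the windows without ATAC than in those with it. The core TGTGGT, which is bound by RUNX factors, was found on either strand in 8 of 34 windows without ATAC (23.5%, 12.4 to 40.0) and 25 of 146 with ATAC (17.1%), beside 20.2% of all lncRNA starts and 15.1% of protein-coding starts. It stands in the Gm34684 window. TATAAA, the TATA box, was in 7 of 34 windows without ATAC (20.6%) and 23 of 146 with ATAC (15.8%), beside 15.7% of all lncRNA starts and 13.3% of protein-coding starts. CACGTG, an E-box that reads the same on both strands, was in 1 of 34 without ATAC (2.94%, 0.521 to 14.9) and 19 of 146 with ATAC (13.0%, 8.49 to 19.4), beside 6.03% of all lncRNA and 7.90% of protein-coding starts; the intervals overlap. CACGTG contains a CpG, while TGTGGT and TATAAA do not, and the windows without ATAC held fewer CpGs. The E-box shares were not adjusted for this. None of the 3 motifs contains another, and a match is not a bound site.

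Peaks without ATAC also covered fewer annotated non-coding genes. An lncRNA span overlapped 301 of them (21.7%, 19.6 to 24.0), against 445 peaks with ATAC (31.9%, 29.5 to 34.4). A transfer RNA gene, transcribed by RNA polymerase III, lay in 2 peaks without ATAC and 23 with ATAC. MicroRNA and small nucleolar RNA genes lay in 0 peaks without ATAC, which allows a share of up to 0.276%, and in 8 each with ATAC. A transcribed pseudogene lay in 1 peak without ATAC, against 26 with ATAC. These counts were not adjusted for the smaller total length of the peaks without ATAC, which covered 1.11 Mb, against 1.68 Mb for those with ATAC and 25.5 Mb for all H3K27ac peaks.

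Lack of ATAC was common between genes. It held for 49.8% of the 2781 intergenic peaks under 5000 bp (interval 48.0 to 51.7), beside a background of 31.1% over all H3K27ac peaks. The share was 4.80% of 9523 peaks at gene ends, 54.7% of 6275 peaks inside genes and 69.5% of 1320 peaks over 100 kb from any gene end. The intergenic share was therefore somewhat below that inside genes (interval 53.5 to 55.9) and far above that at gene ends. The classes were not matched in width. Median widths were 767 bp between genes, 867 bp inside genes, 1248 bp at gene ends and 723 bp over 100 kb away. Only the intergenic class was limited to under 5000 bp, and without that limit its share was 49.5%. Among the 25 intergenic peaks of 5000 bp or more, 2 lacked ATAC. By chromosome the share among the intergenic peaks ran from 40.4% on chromosome 11 to 60.5% on chromosome 10, and on X it was 41.0% (25 of 61).

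The peaks without ATAC were narrow. Their median width was 569 bp (interval 533 to 618, quartiles 335 and 1017, range 49 to 4937), against 961 bp (912 to 1028, range 62 to 4998) for those with ATAC and 1036 bp for all H3K27ac peaks. The share without ATAC fell across the width classes from 86.9% under 250 bp (133 of 153) to 67.4% from 250 to under 500 bp (479 of 711), and then, with upper limits of 750, 1000, 1500 and 2000 bp, to 50.2%, 43.5%, 37.9% and 33.5%, with 30.1% from 2000 bp (88 of 292). A wide peak meets an ATAC peak more easily, so width is tied to the rule. Still, 88 peaks of 2000 bp or more had none.

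**Figure D2:**
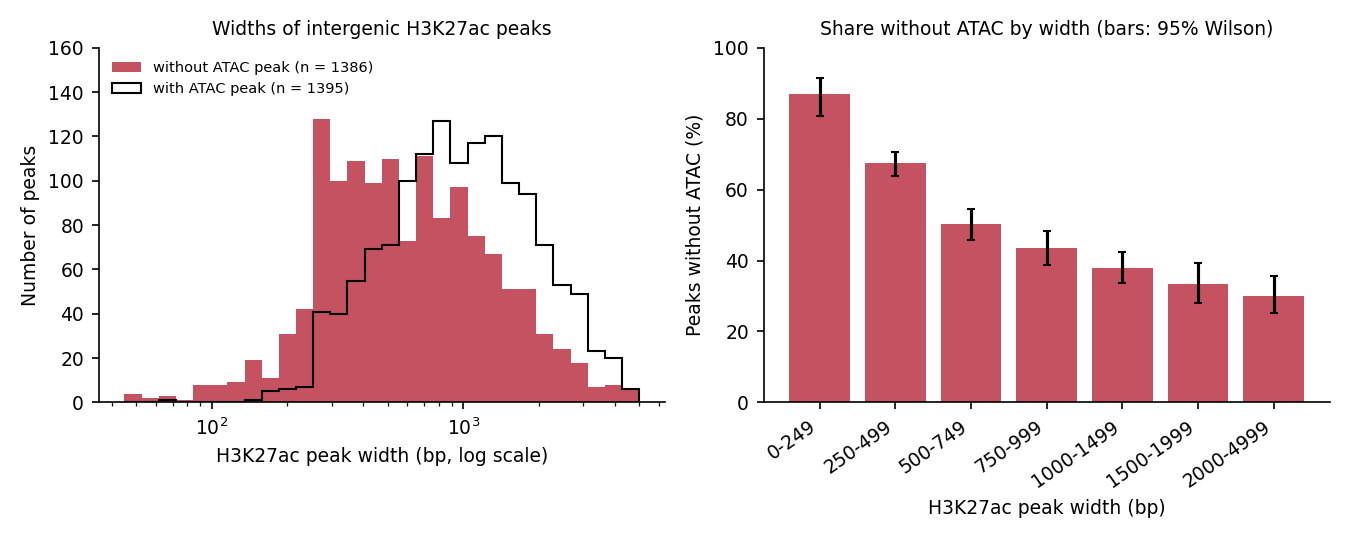
Left, number of intergenic H3K27ac peaks by width in bp on a log scale, for 1386 peaks without ATAC (filled) and 1395 with ATAC (outline). Right, percent of intergenic peaks without ATAC in each width class, with 95% Wilson intervals; the share is 86.9% under 250 bp and 30.1% from 2000 bp.

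The widest of them lay beside genes of varied function. The widest, 4937 bp at chr8:128537895-128542831, lay 32419 bp beyond the far end of Nrp1, which encodes neuropilin-1, a receptor of the axon-repelling semaphorins, and 8691 bp from the nearest ATAC peak. The next were 4623 bp near Hfm1, a meiotic helicase gene, and 4565 bp at chr2:13499291-13503855, 1024 bp from the end of Trdmt1, an RNA cytosine methyltransferase gene. Col28a1, a collagen gene, followed with 4482 bp and Shisa9, which encodes an AMPA receptor partner protein, with 4320 bp. The peak near Shisa9 lay 263708 bp from the nearest ATAC peak, against 2567 to 37950 bp for the other 9 of the 10 widest. Ogfrl1, 3110040M04Rik, Klhl25, Bahcc1 and Irs2 completed the 10, with widths of 3851 to 4303 bp.

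Open chromatin was rarely adjacent. The median gap to the nearest ATAC peak was 9078 bp (interval 7667 to 10573, quartiles 2038 and 31075). At most 100 bp separated 107 peaks from ATAC (7.72%), at most 500 bp 228 (16.5%), at most 1 kb 268 (19.3%), at most 10 kb 716 (51.7%) and at most 50 kb 1196 (86.3%). For the peaks with ATAC, the nearest ATAC peak that they did not overlap had a similar median gap, 9879 bp (9179 to 10733). The quartiles were closer together, at 4663.5 and 22006.5 bp. The order of the medians changed with width. Under 500 bp they were 6725 bp without ATAC and 10838.5 bp with ATAC, from 500 to under 1000 bp 9621.5 and 11074 bp, and from 1000 bp 11951 and 9008 bp. A window of 50 kb to each side held no ATAC peak for 190 peaks without ATAC (13.7%, 12.0 to 15.6), against 112 peaks with ATAC that had no further one (8.03%, 6.72 to 9.57), and the median number there was 2.5 against 4.

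At the limits of the rule, a peak of 399 bp near Tnfrsf21 touched an ATAC peak at 0 bp distance and one of 526 bp near Gm39147 stood 1 bp away, while a peak near Klf7 just outside the rule shared 1 bp with ATAC. In all, 10 peaks with ATAC shared at most 10 bp with it and 126 at most 100 bp, beside the 107 peaks without ATAC that lay within 100 bp of one. The widest peak inside the width limit had 4937 bp and the narrowest outside it, near Ccdc190, 5005 bp. Close to the gene end limit, a peak inside it lay 1024 bp from Trdmt1 and one outside it 995 bp from Fbxo45. At the far limit, Tmsb4x was 99847 bp away, and Adgrl2, outside, 100020 bp.

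The nearest ATAC peak was usually itself between genes. This held for 954 of the 1386 (68.8%), while it lay at a gene end for 310 (22.4%) and inside a gene for 122 (8.80%). Of all ATAC peaks, 30.2% lay between genes, 34.6% at gene ends and 35.2% inside genes; the peaks without ATAC were chosen between genes, so their neighbours are not a like sample. It overlapped H3K27ac for 504 (36.4%), beside 39.6% of all ATAC peaks. When the gap was at most 500 bp the nearest ATAC peak was acetylated for 0 of 228; the H3K27ac peaks of the list are at least 1038 bp apart, so an ATAC peak this close can reach another one only if it is wide. Beyond that the share was 29.6% at 0.5 to 2 kb, 46.4% at 2 to 10 kb, 43.5% at 10 to 50 kb, 43.3% at 50 to 100 kb and 52.4% over 100 kb. Peaks within 100 bp of ATAC were the narrowest, with a median of 372 bp, and those 2 to 10 kb away the widest, with 691 bp.

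Peaks with and without ATAC sat beside genes of similar state. Over all peaks without ATAC the nearest gene was acetylated within 1 kb of an end for 903 (65.2%, 62.6 to 67.6), against 939 peaks with ATAC (67.3%, 64.8 to 69.7) and 49.3% of all genes. It was open at an end for 1013 (73.1%) without ATAC, against 1044 with ATAC (74.8%) and 60.4% of all genes. Within the peaks without ATAC, the nearest gene was acetylated for 75.3% at a gap of 2 to 10 kb (281 of 373), 65.6% at 10 to 50 kb (315 of 480), 51.2% at 50 to 100 kb (65 of 127) and 23.8% over 100 kb (15 of 63). The last share is tied to the rule. These peaks lie at most 100 kb from a gene end, so with no ATAC within 100 kb that end has none either. Of H3K27ac peaks at gene ends, 4.80% lack ATAC. The same tie holds at smaller gaps wherever the gene end lies within the gap. The median distance to the gene end was 32318 bp at gaps of 10 to 50 kb and 55846 bp at 50 to 100 kb.

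**Figure D3:**
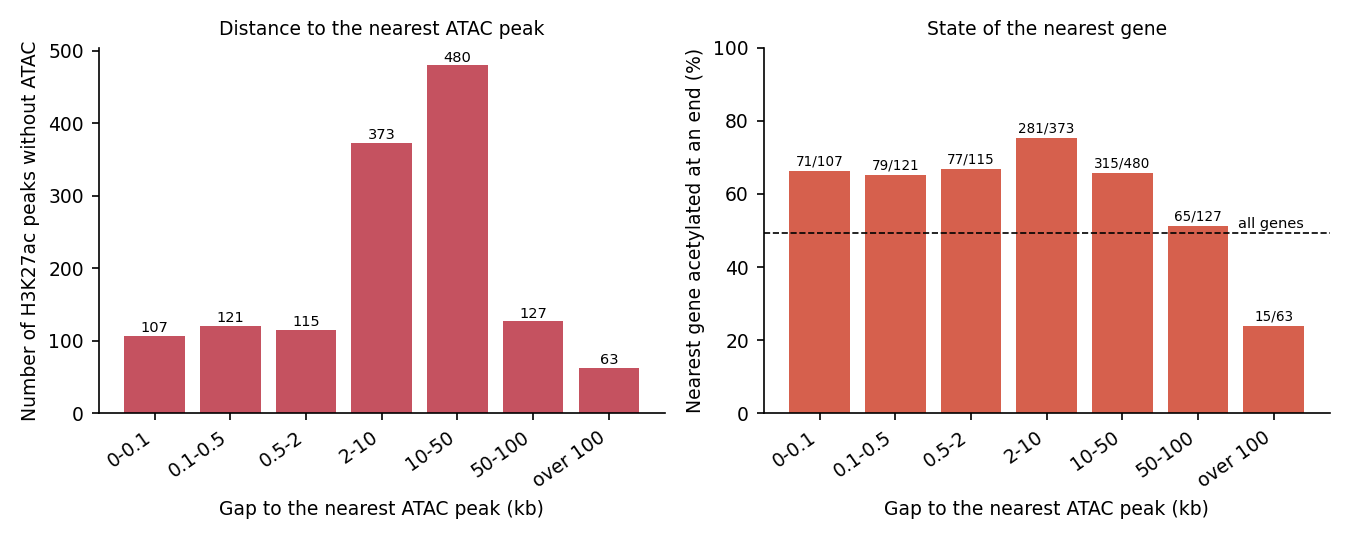
Left, number of intergenic H3K27ac peaks without ATAC by gap in kb to the nearest ATAC peak. Right, percent of these peaks whose nearest protein-coding gene has H3K27ac within 1 kb of an end, with counts above the bars and the 49.3% of all genes as a dashed line; the bars lie above the line up to 100 kb, and the bar over 100 kb, at 23.8%, lies below it.

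The 10 peaks farthest from ATAC were narrow, and most lay beside genes with no mark at an end. The lack of marks is tied to the choice of these peaks. Each lies at most 100 kb from a gene end and farther than that from ATAC, so that end has no ATAC peak. The farthest, 416 bp near Slitrk6, a neuronal transmembrane protein gene, had its nearest ATAC peak 835713 bp away and its nearest H3K27ac peak 836094 bp away. Izumo3, a sperm gene, had 3 of the 10, at 816628, 716510 and 655552 bp, and Aldoart1, a sperm aldolase gene, another 3, at 565578, 564235 and 498171 bp. The rest were near Gm21293, Hdgfl1 and Dach1. Of these genes, Dach1, a retinal and neural transcription factor gene, was the one acetylated at an end. The 10 peaks were 111 to 800 bp wide.

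Peaks without ATAC had other acetylation within 5 kb more often than those with ATAC, but not at wider ranges. Another H3K27ac peak lay within 2 kb of 155 (11.2%, 9.63 to 13.0), against 90 with ATAC (6.45%, 5.28 to 7.86), and within 5 kb of 365 (26.3%, 24.1 to 28.7), against 269 (19.3%, 17.3 to 21.4). The 2 kb order held within width classes: 10.9% without ATAC against 3.17% with ATAC under 500 bp, 10.05% against 3.85% from 500 to under 1000 bp, and 12.9% against 9.48% from 1000 bp, the last with overlapping intervals. At 10 kb the shares were alike, 35.9% without ATAC and 34.6% with ATAC, and the median gap was 17574.5 bp (15957 to 19800) against 18089 bp (16685 to 20132). No other H3K27ac peak lay within 50 kb of 332 without ATAC (24.0%, 21.8 to 26.3), against 294 with ATAC (21.1%, 19.02 to 23.3). With the wider 50% of the H3K27ac list, the 2 kb share without ATAC was 7.04%. The nearest other H3K27ac peak lacked ATAC as well for 533 (38.5%, 35.9 to 41.0), against 362 with ATAC (25.9%, 23.7 to 28.3). It lay at a gene end for 525 without ATAC (37.9%) and 637 with ATAC (45.7%).

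Joined across gaps of up to 10 kb, the H3K27ac peaks gave 1246 domains that held a peak without ATAC. Of the 1386, 889 (64.1%) stood alone and 497 (35.9%) shared a domain with other acetylation, 166 of them with a peak at a gene end and 179 with an ATAC-bearing peak between genes. The 889 have no ATAC in their domain by the rule; of the 497 in shared domains, 137 had no ATAC peak anywhere in the domain. Domains of at least 2 peaks without any ATAC numbered 70. Examples are chr1:159033602-159046099 near Pappa2, which encodes a protease of insulin-like growth factor binding proteins, with 3 peaks over 12498 bp, and chr14:68449992-68462575 near Adam7, with 2 peaks over 12584 bp. A pair near Eya1, which encodes a transcriptional coactivator of cranial sensory placodes, spanned 11355 bp. Peaks without ATAC were densest between Enah, an actin regulator gene, and Srp9, where 3 of them had 5 others within 50 kb.

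The peaks without ATAC were farther from genes. The median distance to the nearest gene end was 28003 bp (26478 to 30299), against 19424 bp (17398 to 21241) with ATAC. The share without ATAC was 46.8% at 1 to 5 kb, 41.2% at 5 to 10 kb, 43.6% at 10 to 25 kb, 54.2% at 25 to 50 kb and 58.1% at 50 to 100 kb. Where the strand of the nearest gene was known, 554 of 1043 (53.1%, 50.1 to 56.1) lay on the side of the gene's start, against 504 of 1078 with ATAC (46.8%, 43.8 to 49.7). The contrast was largest close to the gene: at 1 to 5 kb, 76 of 152 without ATAC (50%, 42.1 to 57.9) were on the start side, against 56 of 178 with ATAC (31.5%, 25.1 to 38.6), while the shares were 53.2% without ATAC and 51.3% with ATAC at 5 to 20 kb, and 53.8% and 48.7% at 20 to 100 kb, both pairs with overlapping intervals.

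Of 21887 protein-coding genes, 1097 (5.01%) were nearest to at least 1 peak without ATAC, 208 (0.95%) to at least 2 and 59 (0.27%) to at least 3. For peaks with ATAC the number was 1172 (5.35%), and 279 genes had both kinds, which is 25.4% of the genes with a peak without ATAC and 23.8% of those with a peak with ATAC. A gene with more empty DNA around it has more room: peaks without ATAC were nearest to 15.7% of genes with over 100 kb of intergenic space. Over the intergenic space of all genes there were 1.65 peaks without ATAC per Mb and 1.66 with ATAC. The order changed with the space: for genes with over 100 kb the values were 1.55 without ATAC and 1.10 with ATAC. For genes with over 5 and up to 20 kb they were 1.79 and 2.82. Genes acetylated at an end had 2.503 peaks without ATAC per Mb, against 1.00 for genes not acetylated there. Peaks with ATAC showed the same contrast, with 2.60 per Mb against 0.947.

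Ntrk3, the gene that encodes TrkC, had 4 peaks without ATAC and 0 intergenic ones with ATAC. They lay beyond the upper end of the gene at chr7:78598033-78598431, chr7:78603184-78605558, chr7:78628880-78630863 and chr7:78650664-78653603, within the span of the lncRNA E430016F16Rik. Their widths were 399, 2375, 1984 and 2940 bp, and their distances from the gene 16999, 22150, 47846 and 69630 bp. The nearest ATAC peaks were 1861, 7012, 361 and 4768 bp away, so open sites lay among these acetylated stretches without overlap. Ntrk3 had neither H3K27ac nor ATAC within 1 kb of an end. An H3K27ac peak with ATAC lay just inside the gene, at -5.198 to -1.25 kb from the upper end, where negative values run into the gene. With non-coding genes counted as nearest genes too, none of the 4 is nearest to Ntrk3, and the same holds for all peaks without ATAC at Pou4f1, Slc17a6, Nefl, Nefm, Elavl2, Rnd3, Dipk2a and Adam7. Runx3 differed: it had 0 peaks without ATAC and 4 with ATAC, all on its start side, 39627 to 87923 bp from the gene. The Runx3 peaks had 21 to 28 other ATAC peaks within 50 kb, against 4 to 9 for the Ntrk3 peaks. The median over all peaks with ATAC was 4, so overlap had unlike room at the 2 genes. The BAC transgene may add copies of the Runx3 region, and its part in these calls was not tested. Among the other proprioceptor genes, Runx1t1, which encodes a corepressor, and Cdh13, a cadherin gene, had 1 peak without ATAC each.

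Pou4f1, which encodes the sensory homeodomain factor Brn3a, had 4 peaks without ATAC on its far side at chr14:104388775-104391209, chr14:104392436-104393535, chr14:104408464-104410639 and chr14:104449149-104449782, within the lncRNA D130079A08Rik. The first 3, of 2435, 1100 and 2176 bp, lay 43321 to 62751 bp from ATAC, and the last, of 634 bp, 4178 bp from it. Pou4f1 also had 1 intergenic peak with ATAC, 6639 bp from the gene. Slc17a6, which encodes the glutamate transporter VGLUT2, had 4 without ATAC, 65051 to 83550 bp beyond its far end, among 2 with ATAC. The widest of these 4, 2963 bp at chr7:51739019-51741981, lay 7907 bp from ATAC, and the last, 1266 bp at chr7:51754676-51755941, 100 bp from it.

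Nefl, the gene of neurofilament light chain, had 4 peaks without ATAC, of 1838, 596, 1632 and 2800 bp, and 2 with ATAC of 3292 and 759 bp. The widest of the 4, chr14:68076295-68079094, lay 4769 bp from the gene and 4594 bp from ATAC. The neighbouring Nefm, the gene of neurofilament medium chain, had 2 without ATAC, of 1648 and 2629 bp, and 2 with ATAC. Elavl2, a neuronal RNA-binding protein gene, had 3 without ATAC and 0 with ATAC; at 2661, 258 and 3447 bp wide, they lay 51021, 83441 and 97056 bp from the nearest ATAC peak. The 2 wide ones are at chr4:91132223-91134883 and chr4:91178258-91181704. Gap43, the gene of a growth cone protein, had 2, of 3725 and 326 bp, 27383 and 40588 bp from ATAC.

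**Figure D4:**
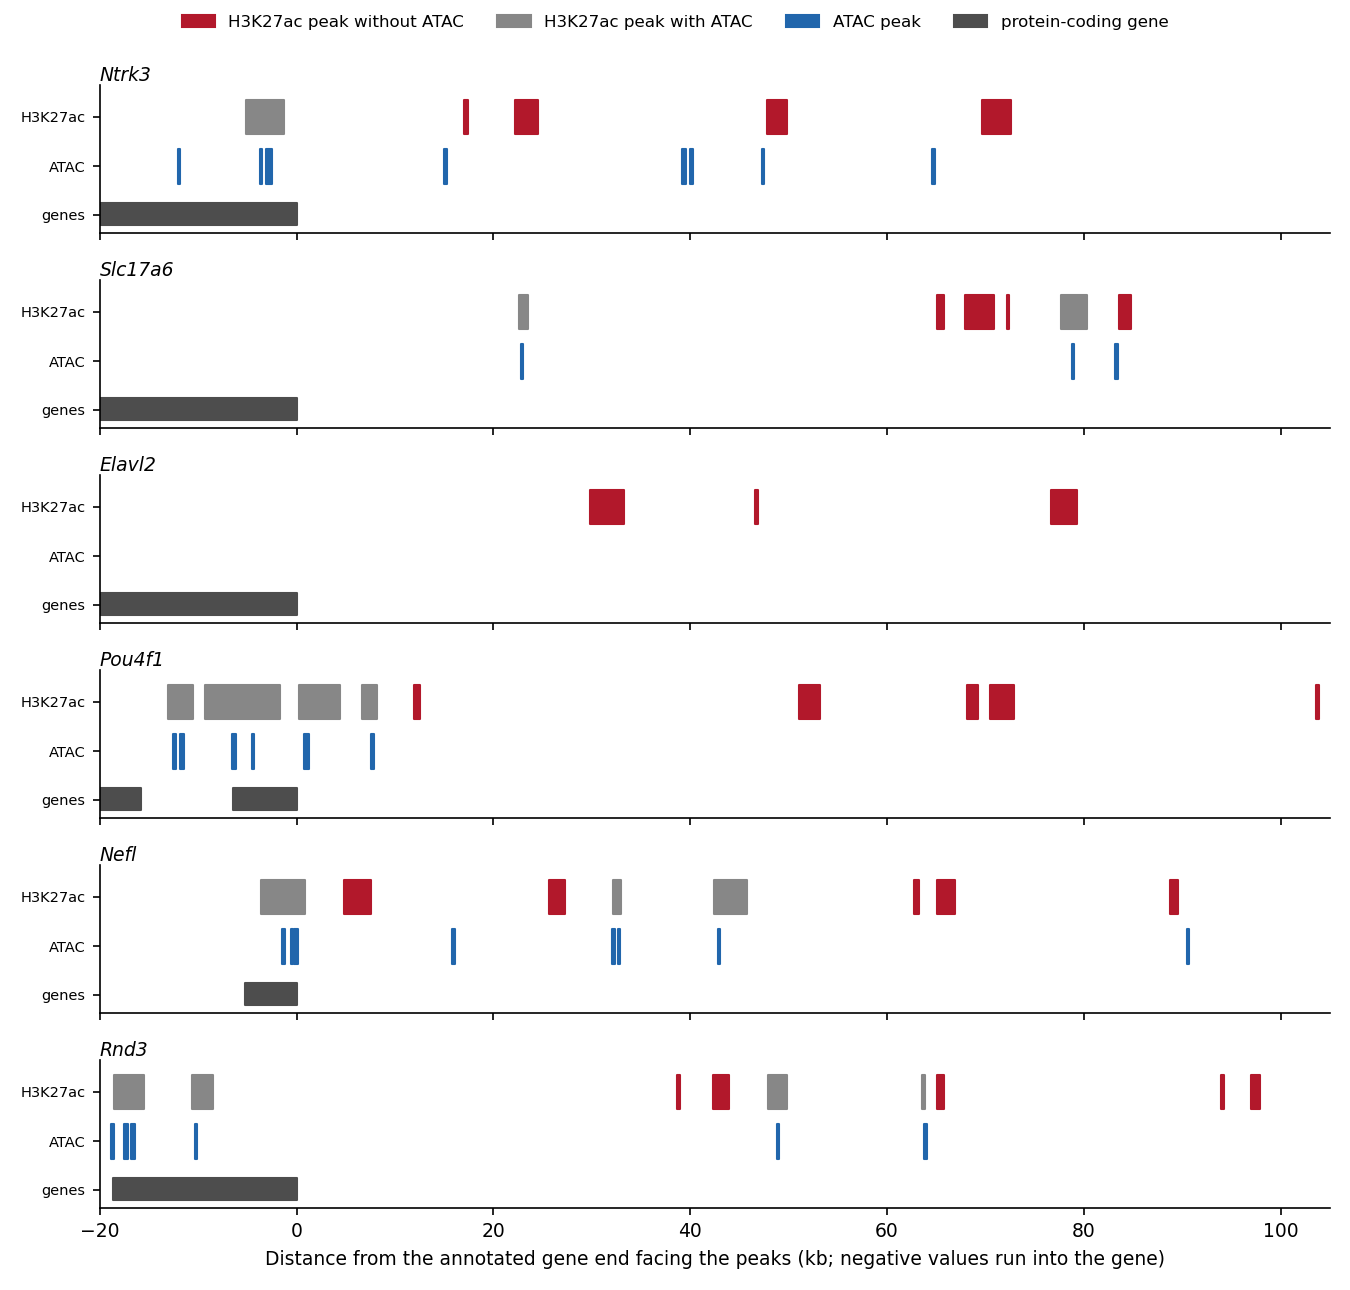
H3K27ac peaks without ATAC (red), H3K27ac peaks with ATAC (grey), ATAC peaks (blue) and protein-coding genes (black) at 6 genes, in kb from the gene end that faces the peaks without ATAC. The window at Elavl2 shows 3 red peaks and no ATAC peak, that at Ntrk3 shows 4 red peaks with ATAC peaks between them, and the outermost red peak at Pou4f1 and at Nefl does not belong to that gene's count; peaks under 0.25 kb are drawn 0.25 kb wide.

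Across the 14 gene lists, 59 of 295 genes (20%) were nearest to a peak without ATAC, beside 5.01% of all genes. The backgrounds are unlike, since list genes have more room: the median intergenic space ran from 22.6 to 129 kb over the lists, against 17.0 kb for all genes, and 15.7% of all genes with over 100 kb had such a peak. The lists were chosen with earlier results of these data known, so the counts are descriptions. The median number of peaks without ATAC per gene was 0.5 for the pan-sensory factors and 0 for each other list.

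Of 26 pan-sensory transcription factors, 13 had a peak without ATAC (50%, interval 32.1 to 67.9), against 10 with an ATAC-bearing one, and their intergenic space held 11.55 peaks without ATAC per Mb against 7.53 with ATAC. Besides Pou4f1, they include Klf7 with 3, Eya1, Ebf1 and Ebf2 with 2 each, and Isl1, a LIM homeodomain factor gene, and Neurog1, a proneural factor gene, with 1 each. At Klf7 the 3 peaks were 336, 849 and 856 bp wide and lay 403, 26818 and 1207 bp from ATAC. At Eya1 both peaks, of 806 and 838 bp, lay over 39 kb from ATAC, at 39169 and 49686 bp.

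Of 24 pan-neuronal genes, 5 had a peak without ATAC (20.8%, 9.24 to 40.5), against 6 with an ATAC-bearing one. The densities were 6.37 peaks per Mb without ATAC and 5.31 with ATAC. Besides Nefl, Nefm, Elavl2 and Gap43 the 5 genes include Ncam1, the gene of a neural cell adhesion molecule, with 1. Of 28 axon guidance and outgrowth genes, 7 had one (25%), against 4 with ATAC. Cntn2, which encodes the axonal adhesion protein TAG-1, had 2 on its start side, of 978 and 1334 bp at chr1:132545042-132546019 and chr1:132547767-132549100, 1936 and 4661 bp from ATAC. Efna5, an ephrin gene, also had 2.

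Of 16 mechanoreceptor genes, 5 had a peak without ATAC (31.3%, 14.2 to 55.6), against 2 with ATAC. Th, which encodes the tyrosine hydroxylase of certain touch neurons, had 2 on its start side, of 671 and 880 bp, 2484 and 4391 bp from the gene and 7544 and 9451 bp from ATAC. Gfra1, a receptor gene for glial cell line-derived neurotrophic factor, had 1 of 1894 bp, 3727 bp from its start side. Of 22 nociceptor and thermoreceptor genes, 4 had one (18.2%), against 3 with ATAC. Trpa1, the gene of an irritant-gated channel, had 2, of 1899 and 1512 bp, over 50 kb from the gene and 59912 and 62980 bp from ATAC. Of 20 proprioceptor genes, 3 had one (15%, 5.24 to 36.0), as did 3 with ATAC. The wide intervals of these 3 lists overlapped each other and that of the pan-sensory factors.

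Immediate early genes had more peaks with ATAC than without. Of these 20 genes, which respond to stimulation and to tissue handling, 5 had a peak without ATAC (25%, 11.2 to 46.9), against 11 with ATAC (55%, 34.2 to 74.2), intervals that overlap, and the densities were 4.58 and 12.2 per Mb. Ier5 had 2 without ATAC, of 313 and 394 bp, beside 2 with ATAC of 2491 and 1450 bp, and Fos, Fosl2, Nr4a1 and Dusp1 had 1 without ATAC each. Of 22 neurotrophin signalling genes, 2 had a peak without ATAC, Ntrk3 and Frs2, an adaptor gene, against 1 with ATAC. Of 20 corepressor and chromatin genes, 6 had one (30%), against 5 with ATAC; Zfhx3, a zinc finger homeodomain gene, had 4, of 258 to 680 bp.

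Markers of other cells that a sort could hold had few such peaks, at shares near those of all genes or with intervals that include them. Glia and neural crest genes were the exception, at 6 of 22 for each kind of peak (27.3%, 13.2 to 48.2). Foxd3, a neural crest factor gene, had 2 without ATAC, of 292 and 882 bp, the second 1057 bp from the gene and 541 bp from ATAC, and Sox10, a glial and crest factor gene, had 1 of 1324 bp. Among 19 genes of motor neurons and the ventral spinal cord, 0 had a peak of either kind, and the upper limit of the interval is 16.8%. The counts without and with ATAC were 2 and 2 of 19 for dorsal spinal interneurons, 1 and 0 of 22 for mesenchyme and muscle, and 2 and 3 of 20 for endothelial and blood genes. The dorsal interneuron genes were Lmx1b and Foxd3, which stands in both lists. The other peaks without ATAC measured 336 bp near Lmx1b, 235 bp near Cdh5 and 418 bp near Cd34, with 1774 bp near Col1a2, a collagen gene. For the 20 proprioceptor genes the share without ATAC was 15% (5.24 to 36.0), an interval that overlapped those of all these lists of other cells. The interval of the pan-sensory factors, 32.1 to 67.9, overlapped that of glia and neural crest and lay above those of the other lists named here. Whether the counts set the sorted cells apart was not tested. Median intergenic space ran from 22.6 to 113 kb over the lists of other cells, against 17.0 kb for all genes, so the backgrounds are unlike. The part of such cells in these counts was not tested.

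**Figure D5:**
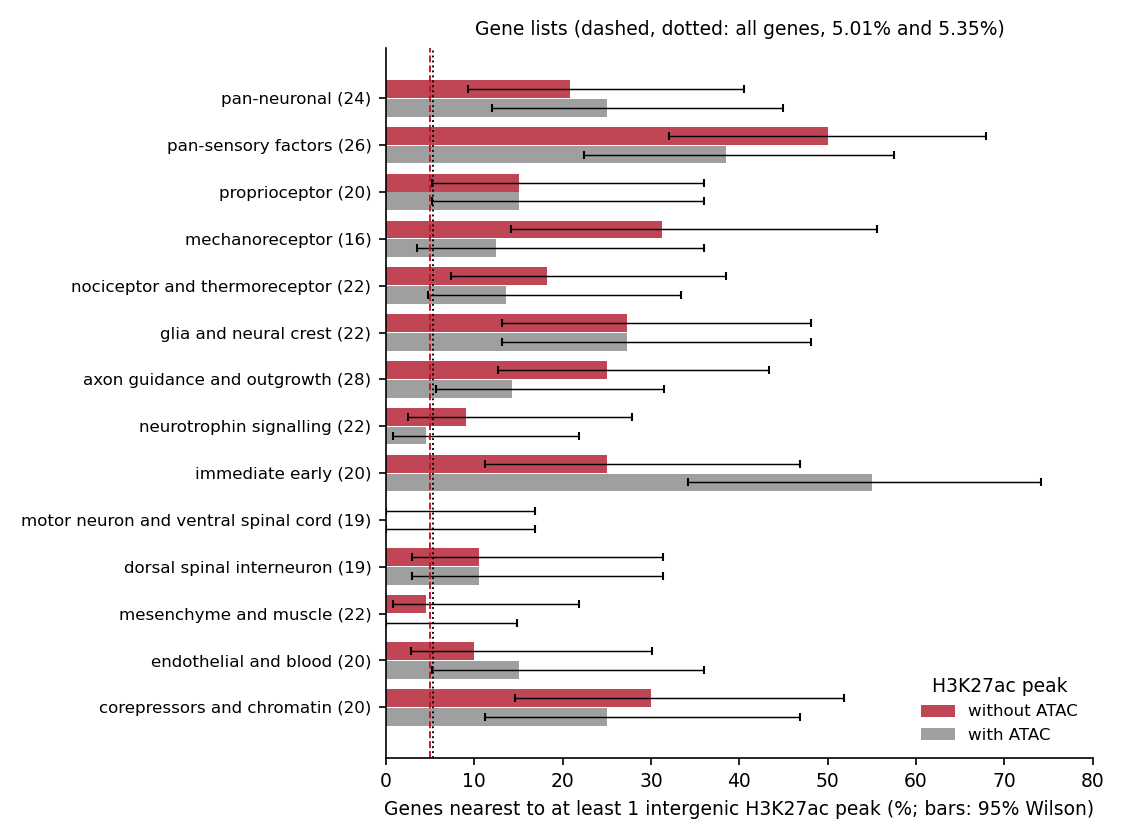
Percent of the genes of each list that are nearest to at least 1 intergenic H3K27ac peak without ATAC (red, upper bar) or with ATAC (grey, lower bar), with 95% Wilson intervals and the number of genes in brackets. The dashed and dotted lines are the 5.01% and 5.35% of all genes; the pan-sensory factors reach 50% without ATAC and the immediate early genes 55% with ATAC.

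The 20 genes with the most peaks without ATAC had 4 or 5 each. Rnd3, which encodes an atypical small GTPase that acts on the cytoskeleton, had 5, of 143 to 1609 bp on its far side, among 2 with ATAC. Dipk2a also had 5, of 97 to 2489 bp, with gaps of 11711 to 43645 bp to ATAC and 0 peaks with ATAC. Adam7 covered the most of the genes with 4, with 9424 bp, and its peaks, at 540 to 3798 bp wide, lay 57835 to 150568 bp from ATAC. Ntrk3 followed with 7698 bp, Nefl with 6866 bp, Pou4f1 with 6345 bp and Slc17a6 with 5257 bp. Cdh11, a cadherin gene, had 4 of 654 to 1253 bp, and Cartpt, which encodes a neuropeptide, 4 of 255 to 1259 bp. Others with 4 each were F13a1, Rps24, Wdfy3, Egfl6, Akr1d1, Eipr1, Zfhx3, Adpgk and Tmc3.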

How the data were processed

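Per the labels' protocols, ganglia were dissociated, cells were fixed and sorted for GFP, and 50000 cells entered each ATAC, H3K27ac or input preparation. The submitters' processing notes name the mm10 build, Bowtie2 2.3.5.1, cutadapt 1.18 and, with no version, bedtools and MACS2. The deposited values are positions in bp of 1 consensus list per assay, with no signal, count or score; the consensus rule, thresholds and any ATAC read shift are not given in the sources used here. Peak edges and narrow peaks depend on those settings, and the depth is unknown.

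Starts were converted from 0-based to 1-based. Members follow the rule in the text, with distances measured from peak edge to gene end, over 21887 protein-coding genes of RefSeq GRCm38.p6; strands, known for 17492 of them, and start windows came from its promoter table; none is printed from chromosome 18. Members and gene lists were chosen with earlier results of these data known. The lists held 300 entries for 295 genes, all matched, 1 by a synonym. Acetylated or open means a peak within 1 kb of either gene end. Intergenic space is the DNA outside genes, 1 to 100 kb from an end, that is nearest to a gene.

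Shares have Wilson intervals and medians order-statistic intervals, both at 95%. No test was run, since peaks are not replicates and each list is 1 set of positions. The text names Runx3, Ntrk3, the 20 genes with most members, up to 4 genes per list with most members, genes beside the 10 widest, 10 farthest and 10 densest members, and members at the rule's limits; other list genes, the lncRNAs, and the domain examples were named after their values were seen. Some genes that this rule takes are not reported here. Results were recomputed under alternative overlap, width, distance and annotation settings. The procedures were tested on simulated intervals. Tools were Python 3.11.15, pandas 2.3.3, numpy 2.4.6, scipy 1.17.1 and matplotlib 3.10.9.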

Additional observations from a re-analysis of the deposited data

How the results depend on the processing

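The number of intergenic acetylated peaks without ATAC was 1386 and ranged from 998 to 1760 under 8 of the 9 other settings; with the wider 50% of the H3K27ac list it was 341. That setting, which drops the narrow peaks, also gave 34.2% without ATAC (49.8% as reported), a median width of 1519 bp, median gaps of 12072 bp to ATAC and 32137 bp to H3K27ac, 48.4% with an acetylated nearest gene, 303 genes nearest to such a peak and 23 genes of the lists. When non-coding genes also bounded the intergenic space, the values were 60.2%, 16069.5 bp to ATAC, 24604 bp to H3K27ac, 29.7% and 24 list genes, and by construction no lncRNA start remained inside (0%). The wider 50% of the ATAC list gave 63.3% without ATAC, 656.5 bp in width and 24938 bp to ATAC. Counting ATAC overlap where at least 50% of the ATAC peak was covered gave 56.2% and 6158.5 bp to ATAC. Requiring no ATAC peak within 500 bp gave 41.6%, 637.5 bp in width and 14427 bp to ATAC. A limit of 50 kb from a gene end gave 47.2%, 6562.5 bp to ATAC and 14916 bp to H3K27ac. Over 8 main results, 48 of the values stayed within 1.5 times or within their interval and 24 moved. The pan-sensory count of 13 fell to 5 with the wider H3K27ac peaks and 7 with non-coding genes, and was 11 to 13 otherwise. Of 513 counts of peaks per named gene, 112 moved. With non-coding genes, Ntrk3, Pou4f1, Nefl, Nefm, Elavl2, Slc17a6, Rnd3, Dipk2a and Adam7 had 0 each. Slc17a6 also had 0 with the 50 kb limit, and Runx3 had 1 with 50% of the ATAC peak covered or with the wider ATAC peaks. Distance from the peak's midpoint, and all settings for the lncRNA starts, the list genes and the named genes, were chosen after seeing the data. The cause of these shifts was not tested. No paired analysis was possible because each assay has 1 consensus list with no values per replicate, and leaving out a replicate was not possible for the same reason.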

Other observations

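Outside the chromosomes analysed, 4 H3K27ac and 87 ATAC peaks lay on unplaced scaffolds. Chromosome Y held 2 H3K27ac and 25 ATAC peaks, and 0 of the intergenic acetylated peaks without ATAC. Between genes, pseudogenes that are not annotated as transcribed lay in 6 peaks without ATAC and 20 with ATAC, and small nuclear RNA genes in 2 and 12. Of the peaks without ATAC, 330 (23.8%, interval 21.6 to 26.1) had a nearest gene with neither mark at an end, against 303 with ATAC (21.7%, 19.6 to 24.0).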
